A study of Mus musculus with 2 samples.

Results

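The 39 Hox cluster genes of the mouse were followed in cochlear RNA from mice dissected 3 hours after intense noise and from mice without noise. Members were all genes whose array name was Hoxa, Hoxb, Hoxc or Hoxd followed by a number, which gave 39 of the 37074 gene names on the array. They were read by 52 probes, with 1 probe for 29 genes, 2 for 7 genes and 3 for 3 genes. Both groups were females of the inbred C57BL/6 strain, aged 7 weeks, and total RNA of the cochlea was labelled with Cy3 for a 1-colour Agilent array. The noise group had been exposed for 2 hours, and the baseline group had no exposure. Each group had 1 array, the labels used here do not say how many mice stood behind it, and every difference below is therefore between 2 samples with no replicate error and no test.

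Hox genes encode homeodomain transcription factors that give cells their position along the body axis. They lie in 4 clusters, Hoxa to Hoxd, and genes at the same place in different clusters form paralog groups numbered from 1 to 13. The order along each cluster matches the order of expression from head to tail: groups 1 to 4 mark the hindbrain, pharyngeal arches and neck, the middle groups mark the trunk and are also used by blood cell precursors, and groups 10 to 13 mark the lumbar and tail regions, the limbs and the urogenital tract. Many adult tissues keep part of the Hox pattern of their embryonic origin, and derivatives of the forebrain and the most anterior neural crest lack it.

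The homeobox is so alike among these genes that probe sequence matters for telling them apart. Probes were compared here only with one another, so binding of a probe to the transcript of a related gene was not examined. The longest run of identical bases between any 2 of the 52 probes that belong to different genes was 12 bases, over 1310 pairs, against a probe length of 60. It joined the Hoxc12 and Hoxd10 probes, which both lie in the homeobox, and it is in capitals in these sequences.

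Hoxc12: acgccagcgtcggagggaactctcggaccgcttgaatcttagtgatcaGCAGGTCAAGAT

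Hoxd10: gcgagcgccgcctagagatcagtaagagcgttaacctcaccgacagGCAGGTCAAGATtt

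The Hoxc11 probe reaches further into the homeobox, to the third helix of the homeodomain, which contacts DNA. The capitals mark the 18 bases that encode 6 residues of that helix, starting with its invariant tryptophan.

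Hoxc11: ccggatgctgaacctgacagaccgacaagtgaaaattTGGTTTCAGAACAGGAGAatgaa

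For the genes with the lowest and highest log2 ratios, the first 30 of 60 probe bases are shown, 5′ to 3′, with the position of the whole probe on mouse assembly mm9. The Hoxd4 probe lies at chr2:74566866-74566925 (plus strand), the Hoxa3 probe that was well above background at chr6:52119087-52119146 (minus strand) and the Hoxc4 probe at chr15:102867213-102867272 (plus strand).

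Hoxd4: tcatatggcaggagctactgagaacataaa

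Hoxa3: gctagatttgttttgagagttttacattcc

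Hoxc4: ataaagaattttagtgttgatgtgaaatgc

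Anterior Hox genes were above background and posterior ones were not. A gene was counted where the scanner software called at least 1 unflagged probe well above background. That held for 14 of the 39 genes after noise and 15 at baseline, against 73.2% and 73.1% of all gene names, and for 16 on at least 1 array (41.0%, against 74.7% of all names). By position, 10 of the 12 genes of groups 1 to 4 were above background on at least 1 array, 6 of the 15 genes of groups 5 to 9, and 0 of the 12 genes of groups 10 to 13. Of the 16 genes, 13 were measured on both arrays (33.3% of the members, against 71.6% of all names), Hoxa4 passed only after noise and Hoxa5 only at baseline. Hoxa2 was well above background on both arrays, but its spot carried a flag for uneven local background on the noise array and was left out of counts of measured genes.

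**Figure D1:**
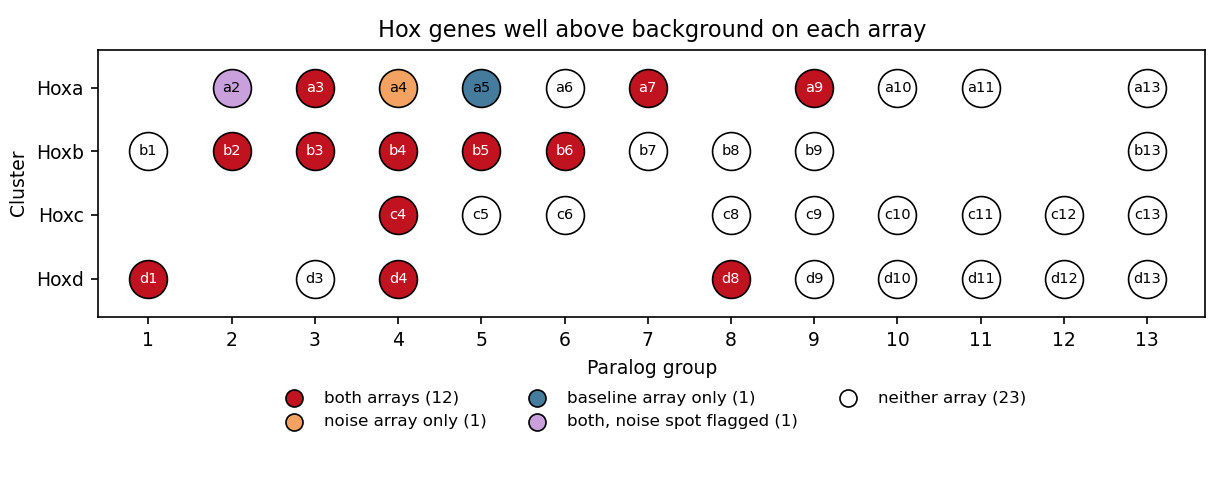
Each circle is 1 of 38 Hox genes, placed by cluster (vertical axis) and paralog group (horizontal axis), and its colour gives the arrays on which it was well above background. Filled circles lie in groups 1 to 9, and the 12 genes of groups 10 to 13 are all open.

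The clusters differed in how many members were seen. Hoxa had 7 of 11 genes above background on at least 1 array and Hoxb 5 of 10, in an unbroken block from Hoxb2 to Hoxb6. Hoxd had 3 of 9, namely Hoxd1, Hoxd4 and Hoxd8. Hoxc had 1 of 9, Hoxc4, the most anterior gene of that cluster. The 2 genes of groups 1 to 4 that were not above background were Hoxb1, with signals of 1.08 (noise) and 1.09 (baseline), and Hoxd3, with 1.62 and 1.29. The lowest signal called well above background on any probe was 4.58 after noise and 4.35 at baseline. With the weaker call that a spot was positive and significant, 24 genes passed after noise and 25 at baseline. On each array 12 of these were in groups 5 to 9 and 2 in groups 10 to 13. The share of all gene names that passed this weaker call was not computed. Whether these counts are low or high for the array is therefore not known.

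In paralog group 1, whose members act first in the hindbrain, Hoxd1 was dimmer after noise. Hoxd1, a gene of pain-sensing neurons in the mouse, had a processed signal of 16.3 ± 1.89 after noise and 21.3 ± 2.32 at baseline, where ± is the scanner software's own error of 1 spot and not a spread between animals. After each array was scaled to its 75th percentile (signals of 316 and 278), the log2 ratio of Hoxd1, noise minus baseline, was -0.57. It lay under the 2-fold size that was used in place of a test.

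In group 2, Hoxa2 specifies the pharyngeal arch that forms parts of the middle and outer ear, and Hoxb2 acts in the hindbrain. Hoxa2 had signals of 34.9 ± 3.63 after noise, from the flagged spot, and 44.7 ± 4.57 at baseline, with a log2 ratio of -0.54 from these. The Hoxb2 probe on the strand of the gene read 23.2 ± 2.53 (noise) and 33.8 ± 3.52 (baseline), a log2 ratio of -0.73. A further probe that the array names Hoxb2 lies on the opposite strand, at chr11:96211860-96211919, and reads a bone cDNA rather than the Hoxb2 messenger. Its first 30 bases are given below the sense probe, which lies at chr11:96215122-96215181.

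Hoxb2 sense probe: tggtaaaactccttccaacgaaatctcagg

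Opposite strand probe: gtaatgtattctatggtgaggcacctatga

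The opposite strand probe read 9.54 ± 1.41 after noise and 12.8 ± 1.63 at baseline, a log2 ratio of -0.61. Both strands of the Hoxb2 locus thus read lower after noise. The gene value, the median over both probes, was -0.67.

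In group 3, Hoxa3 is needed for the thymus, parathyroid and carotid body, and Hoxb3 acts in the posterior hindbrain and in blood precursors. Hoxa3 fell just short of 2-fold. Its brightest probe read 19.7 ± 2.24 after noise and 33.7 ± 3.53 at baseline, which made Hoxa3 1.94-fold lower after noise (log2 ratio -0.96). The other 2 Hoxa3 probes stayed near the floor, with signals of 1.03 to 3.87 over both arrays. The 3 Hoxb3 probes disagreed in direction. The first read 59.8 (noise) and 72.0 (baseline), a log2 ratio of -0.45, and the second read 34.8 and 27.4, a log2 ratio of 0.16. The third Hoxb3 probe read 8.01 after noise, well above background, and 3.98 at baseline, not well above it. The Hoxb3 value of -0.15 is the median of the first pair only.

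Group 4, whose genes set the border between hindbrain and neck, held both the lowest and the highest log2 ratio among the measured Hox genes. Hoxd4 was 2.76-fold lower after noise, with signals of 7.42 ± 1.22 (noise) and 18.0 ± 2.03 (baseline) and a log2 ratio of -1.46 with a scanner error of 0.29. Hoxd4 was the only Hox gene past 2-fold among the 13 that were measured. Hoxc4 was 1.58-fold higher after noise, with signals of 14.2 ± 1.76 and 7.88 ± 1.28 and a log2 ratio of 0.66 with a scanner error of 0.30. Hoxb4, which widens the pool of blood stem cells when raised, read 103 ± 10.4 and 93.1 ± 9.37, a log2 ratio of -0.04. Hoxa4 read 6.25 after noise and 4.95 at baseline, where it was not well above background. It was 1.11-fold higher after noise, a log2 ratio of 0.15 with a larger scanner error of 0.45. For a gene that passed on a single array, a fold given below as at least a value is a bound. For this bound the dim side was taken at its own level or at the lowest level called well above background there, whichever was larger. For Hoxa4 its own level was larger, so 1.11 is the plain ratio.

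**Figure D2:**
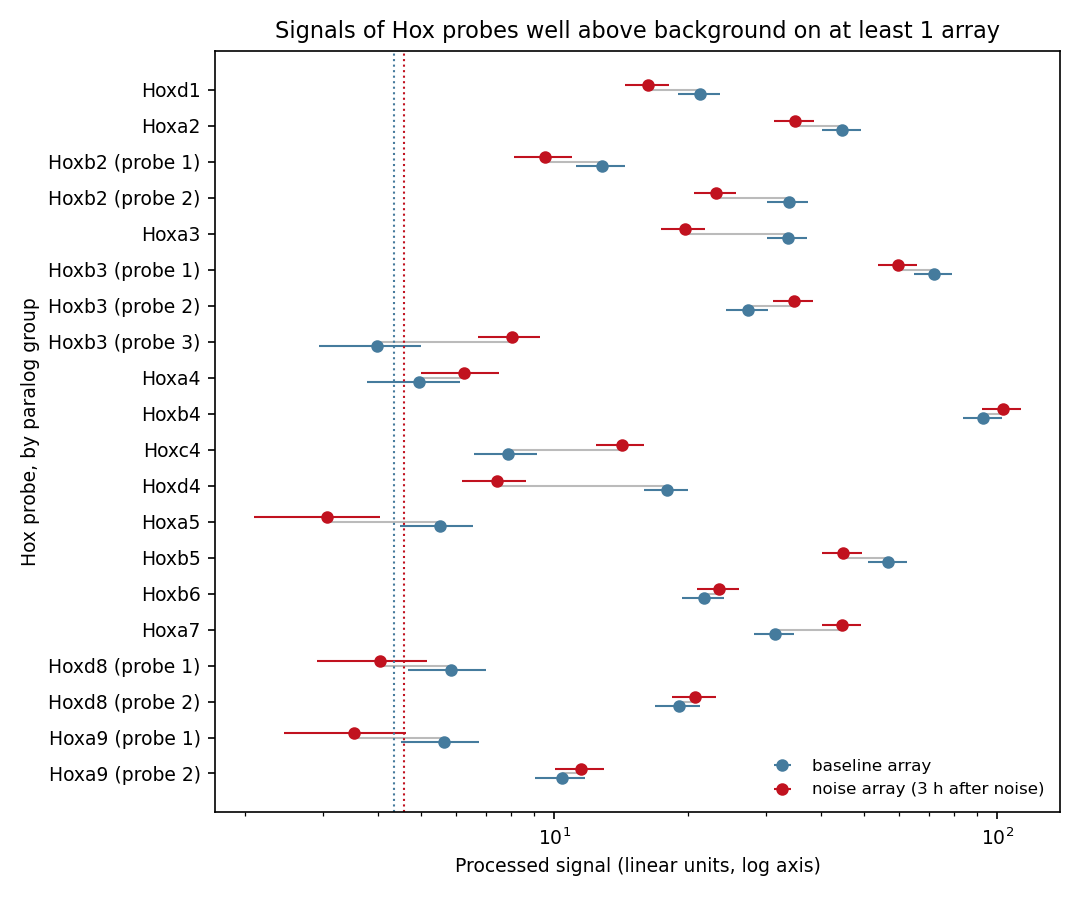
Processed signal (horizontal log axis) of 20 Hox probes well above background on at least 1 array, ordered by paralog group, on the noise array (red) and the baseline array (blue), before scaling, with the scanner's error of each spot as bars; dotted lines are the lowest signals called well above background. Hoxd4 shows the widest gap among probes well above background on both arrays, from 7.42 to 18.0.

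In the middle groups, 4 of 5 measured genes lay below 0, against 52.5% of all measured genes, and 2 of 5 did so with quantile or loess scaling and 1 of 5 with spike-in scaling. Hoxb5 read 44.9 ± 4.63 (noise) and 56.8 ± 5.80 (baseline), a log2 ratio of -0.52. Hoxb6 read 23.6 and 21.8 with a log2 ratio of -0.07 (rounded from -0.065), and the brighter Hoxd8 probe 20.8 and 19.1 with a log2 ratio of -0.06. Hoxa7 was higher on the noise array, at 44.7 ± 4.57 against 31.5 ± 3.28, a log2 ratio of 0.32. Hoxa7 and Hoxa9 are expressed in blood cell precursors, and the brightest Hoxa9 probe read 11.5 and 10.4, a log2 ratio of -0.04. Dimmer probes of Hoxa9 and Hoxd8 were above background on the baseline array only, at 5.64 and 5.84, against 3.54 and 4.04 on the noise array. Hoxa5 did the same, with 5.52 at baseline and 3.07 after noise, which put it at least 1.37-fold higher at baseline. The scanner error of its log2 ratio was 0.53, and the bound does not include that error.

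The 12 posterior genes read between 0.884 and 2.65 on both arrays. The highest was Hoxa10, a gene of the uterus and of blood precursors, at 2.65 on the baseline array. Limb and urogenital genes of group 13 stood at 0.94 and 0.916 for Hoxa13, 0.92 and 0.895 for Hoxb13 and 1.05 and 1.51 for Hoxd13 (noise and baseline). In the Hoxc cluster, 8 genes failed the well-above-background call on both arrays. Of these, Hoxc5 read 3.91 and 4.66 and was called positive and significant on both. Being not well above background says that a transcript was not seen with these probes, and not that it was absent.

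Across the 13 measured Hox genes the median log2 ratio was -0.15, against -0.01 over the 26528 genes measured on both arrays. Of the 13, 1 was at least 2-fold lower, against 1.25% of all measured genes, and 0 were at least 2-fold higher, against 0.611%. Over all genes these shares stand for 332 lower and 162 higher, and the split moved to 286 and 207 with quantile scaling, 74 and 56 with normexp and 217 and 301 with spike-in scaling. Below 0 lay 11 of the 13, against 52.5% of all measured genes, and 9 did so with quantile or loess scaling, 12 with the normexp background and 6 with scaling to spike-in probes, which moved the median of all genes to 0.16. Against the median of all genes under that same scaling, 11 of 13 lay below. The 5 measured genes of groups 1 to 3 had a median of -0.59 and were all below 0, except that Hoxb3 was at 0.03 with spike-in scaling and 0.16 with no filter on dim probes. With group 4 included, 7 of the 8 measured genes of groups 1 to 4 lay below 0 (5 with spike-in scaling), with a median of -0.58. The 5 genes of groups 5 to 9 had a median of -0.06. With no filter on dim probes the medians were -0.195 for groups 1 to 4 and -0.183 for groups 5 to 9. The difference between these sets was not tested.

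**Figure D3:**
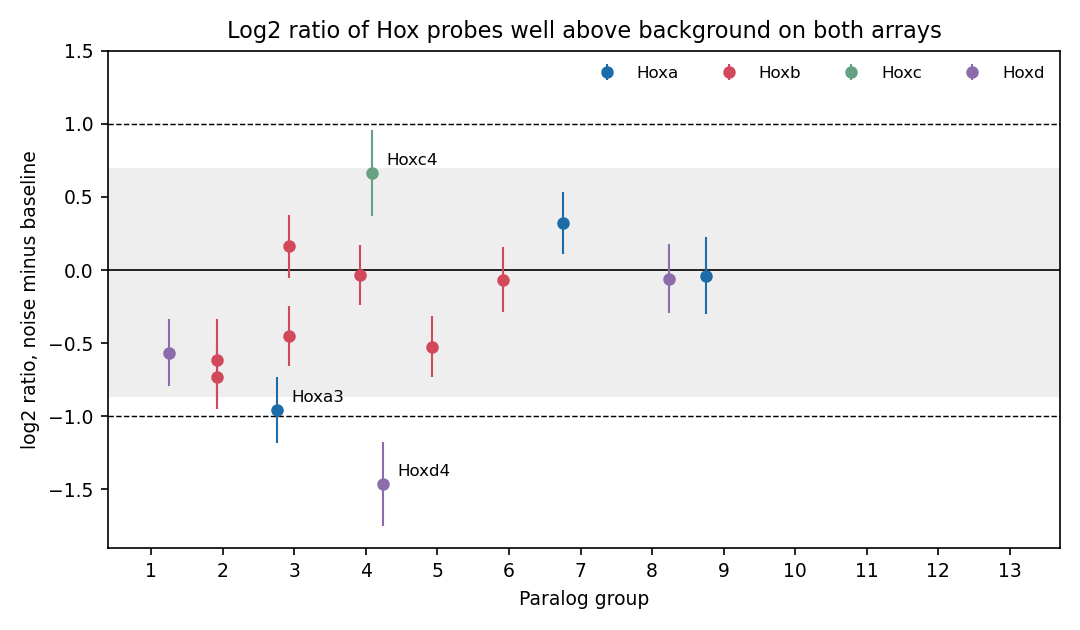
Log2 ratio, noise minus baseline (vertical axis), of Hox probes well above background on both arrays, by paralog group, with the scanner's error as bars and colours for the clusters. Dashed lines mark 2-fold. The grey band is the central 95% of log2 ratios among genes within the whole level range of the measured Hox genes. Only Hoxd4 lies beyond 2-fold, Hoxa3 lies just outside the band, and no point stands to the right of group 9.

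These signals were low, and the error at this level was wide. Among the 10585 genes whose mean level lay within the range of the measured Hox genes, 95% of log2 ratios, those nearest the middle, lay between -0.86 and 0.69, 1.87% were at least 2-fold lower, 0.775% at least 2-fold higher and 56.6% below 0. Hoxd4 and Hoxa3 lay outside that central range, and the other 11 measured Hox genes lay within it. The range pools dimmer and brighter genes, so it can be too narrow for dim genes such as Hoxd4, at 7.42 and 18.0. Different probes of a gene at these levels differed in log2 ratio with an SD of 0.31 (3455 genes). A spike-in transcript printed in 35 spots, with median signals of 9.23 and 6.99, had an SD of 0.39 for the log2 ratio of single spots, and another at 55.5 and 59.2 had 0.11. The Hoxd4 ratio rests on 1 spot per array.

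Among the alternatives that still measured Hoxd4, its call ended under 1, in which the background model and an added offset changed together. With this normexp background, the offset of 50 added to each signal shrinks ratios of dim spots by construction. Hoxd4 was at -0.39, Hoxa3 at -0.39, Hoxb2 at -0.30, Hoxd1 at -0.28 and Hoxc4 at -0.03, so that Hoxc4 was no longer higher after noise and no Hox gene was past 2-fold. With the stricter filter, which keeps only brighter probes, Hoxd4 was no longer measured. Under the other scalings Hoxd4 stayed past 2-fold, between -1.46 and -1.29.

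**Figure D4:**
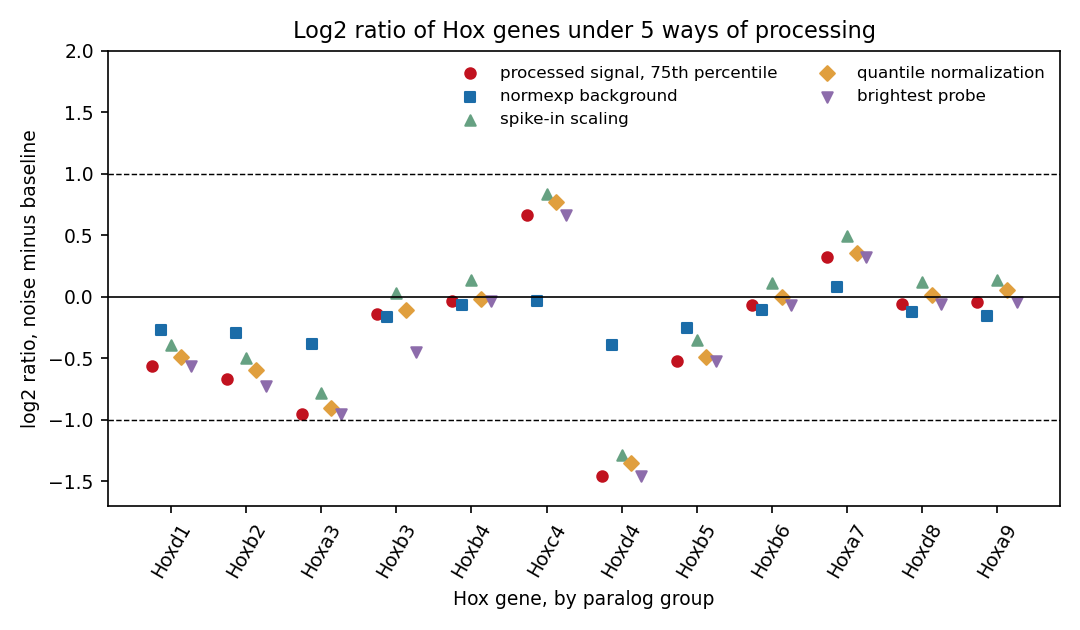
Log2 ratio of 12 of the 13 measured Hox genes (horizontal axis, by paralog group) under 5 ways of processing, shown as symbols; dashed lines mark 2-fold. Hoxd4 is past 2-fold under 4 of them and at -0.39 with the normexp background, where Hoxc4 is at -0.03.

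Noncoding RNAs from the same clusters were also read. They were gathered after the data were seen, as the names on the array for antisense or intergenic Hox transcripts. Of 8 such RNAs with 12 probes, 6 RNAs and 7 probes were well above background on both arrays, against 71.6% of all gene names. Their log2 ratios lay between -0.44 and -0.12. Of these RNAs 6 of 6 lay below 0 after scaling to the 75th percentile and 4 of 6 with spike-in scaling, against 52.5% of all measured genes with the former, and several unscaled signals were equal or slightly higher after noise. Hoxb5os, antisense to the middle of the Hoxb cluster, read 239 (noise) and 237 (baseline). Haglr, transcribed against the anterior Hoxd genes, read 116 and 139. At the posterior end of the Hoxa cluster, where Hoxa11 and Hoxa13 were near the floor, the 2 probes of Hoxa11os read 11.2 and 25.7 after noise and 11.0 and 26.9 at baseline. Hottip, transcribed from beyond Hoxa13, read 11.7 and 11.2. In the Hoxc cluster HOTAIR read 0.996 and 0.97, not well above background on either array.

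Of the genes next to the clusters 16 of 17 were measured, against 71.6% of all gene names, and none of these was past 2-fold. Their median was 0.06, with 10 above 0 and 6 below. These counts were 8 and 8 with normexp, 13 and 3 with median scaling, and 14 and 2 with spike-in scaling. The homeobox gene Evx1, which lies beyond Hoxa13 and marks commissural interneurons of the spinal cord and hindbrain, was not above background after noise. Evx1 read 3.57 after noise and 25.4 at baseline, at least 6.28-fold higher at baseline. Evx2, beyond Hoxd13, had 2 probes with log2 ratios of 0.00 and 0.91 and a gene value of 0.46. Tax1bp1, an adaptor of autophagy and NF-kappaB control, followed at 0.35 and Lnp, an endoplasmic reticulum protein, at -0.29.

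The TALE homeodomain proteins Pbx, Meis and Pknox bind DNA together with Hox proteins, and 9 of 9 were measured on both arrays, against 71.6% of all gene names, with none past 2-fold and a median of -0.10 (2 above 0, 7 below, and 5 above and 4 below with spike-in scaling). Meis2 was at -0.42, with its 5 measured probes between -1.01 and 0.02, Pbx3 at 0.38 (median signal over its measured probes 933 after noise and 633 at baseline) and Meis1 at -0.26 (76.2 and 89.6).

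Upstream regulators of the clusters gave 10 measured genes of 15 (71.6% over all gene names), a median of 0.08 and none past 2-fold. Egr2, the hindbrain segment factor that activates group 2 genes and is also a Schwann cell and immediate early gene, read 2120 (noise) and 1180 (baseline), a log2 ratio of 0.67. Cyp26b1, which degrades retinoic acid, read 315 and 454, a log2 ratio of -0.71. Gdf11, a ligand that sets the trunk to tail switch, was at -0.41. Of the retinoic acid receptors Rarb was at 0.35, Rara at 0.13 and Rarg at 0.10, and the synthetic enzyme Aldh1a2 was at 0.06. The posterior activators Cdx1, Cdx2 and Cdx4 were near the floor, at signals of 0.912 to 1.12, as was Cyp26c1.

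Polycomb and trithorax proteins hold Hox clusters silent or active. All 22 were measured, against 71.6% of all gene names. Their median was 0.01, with none past 2-fold, 12 above 0 and 10 below (9 and 13 with normexp, 19 and 3 with spike-in scaling). Kmt2a, which keeps Hox genes active, was at -0.29 and Cbx8 at -0.26. Ezh2, the Polycomb methyltransferase, was at 0.19.

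For positional genes outside the clusters, shares above background on at least 1 array are read against 74.7% of all gene names. Of 27 homeobox genes of the head, where Hox genes are silent, 22 were above background on at least 1 array, with a median log2 ratio of -0.01 over 21 measured. Alx1, a factor of facial neural crest, was the only one past 2-fold, at 13.9 (noise) and 6.05 (baseline), a log2 ratio of 1.02, and with normexp none of this list was. Dlx6, a lower jaw factor, was at -0.87, Lhx9 at -0.53, the craniofacial factor Msx1 at -0.51 and the otic factor Emx2 at 0.50. Lhx2 read 3.41 after noise and 18.6 at baseline, at least 4.62-fold higher at baseline. Of 14 limb and trunk factors 12 were above background on at least 1 array, and 10 were measured with a median of -0.10. Pitx1, a factor of hindlimb, jaw and pituitary, was the only one past 2-fold, at 16.6 and 34.0, a log2 ratio of -1.22, and none was with normexp. The next were Pax9 and Meox1, both at -0.33, and Shox2 at 0.20.

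Some lists of tissue markers differed between the arrays, and others centred near 0. Whether these tissues had a part in the Hox values was not tested. All 25 cochlear markers were above background on both arrays, against 71.6% of all gene names. Their median was 0.23 and their summed level 155 (noise) and 139 (baseline), in units of each array's 75th percentile. Pou3f4, a factor of the otic mesenchyme, was the only one of them past 2-fold, at -1.22. With normexp none of them was, and the median was 0.03. Hindbrain and spinal neuron markers, tissue in which anterior Hox genes are expressed, were lower on the noise array. Of 18 measured, 14 were below 0 (11 with spike-in scaling), against 52.5% of all measured genes. At least 2-fold lower were 6 (4 with normexp), against 1.25%. The list had a median of -0.36 and a summed level of 51.7 (noise) against 70.6 (baseline). Pvalb, a calcium buffer gene that many other cells express, held 82.1% and 76.9% of that sum, and the rest summed to 9.24 and 16.3. The glycine receptor gene Glra1 read 54.0 and 868, the inhibitory vesicle transporter gene Slc32a1 89.0 and 748, Gad2, which makes GABA, 10.3 and 68.1, the neuropeptide gene Sst 59.2 and 385, and the interneuron factor genes Lhx5 and Lbx1 4.66 and 9.97, and 17.3 and 35.6. Slc6a5, the glycine transporter gene, was above background at baseline only. Motor neuron gene Mnx1 and Tlx3 were not above background on either array. In bulk RNA, fewer cells of a type and less RNA per cell cannot be told apart.

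Markers of muscle and fat were lower on the noise array as well. The counts in this paragraph are read against all measured genes. Of those, 52.5% lay below 0, 1.25% were at least 2-fold lower and 0.611% at least 2-fold higher. Of 20 muscle markers 18 were below 0 and 5 at least 2-fold lower, but 1 with spike-in scaling and 2 with normexp (median -0.69, summed level 16.6 against 29.2), namely Mb, Myh1, Myh2, Ckm and Myh4, at -1.32 to -1.02. Of 20 adipocyte markers 16 were below 0 and 10 at least 2-fold lower, 7 with normexp (median -0.91, 43.7 against 115), from the brown fat gene Ucp1 at -2.81 and Cidea at -2.69, through Cidec, Dgat2, Cfd, Plin1, Adipoq, Fabp4 and Adrb3, to Pparg at -1.01. Blood progenitor markers, the tissue of Hoxa7, Hoxa9 and Hoxb4 expression, leaned the other way, with 16 of 20 above 0, none past 2-fold, a median of 0.20 and a summed level of 111 against 89.5. Noradrenergic and sympathetic markers were higher in 8 of 8 (7 of 8 with normexp, which left 1 past 2-fold), with Dbh (3.31), Phox2a (1.53) and Th (1.31) past 2-fold and a median of 0.51 (summed level 13.3 against 9.48, of which Gata3, also an inner ear gene, held 84.2% and 87.4%). The 15 bone markers, none of them past 2-fold, centred on 0.04. Every marker on the array of the muscle, adipocyte, blood, bone and noradrenergic lists was above background on at least 1 array. The share over all gene names was 74.7%.

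**Figure D5:**
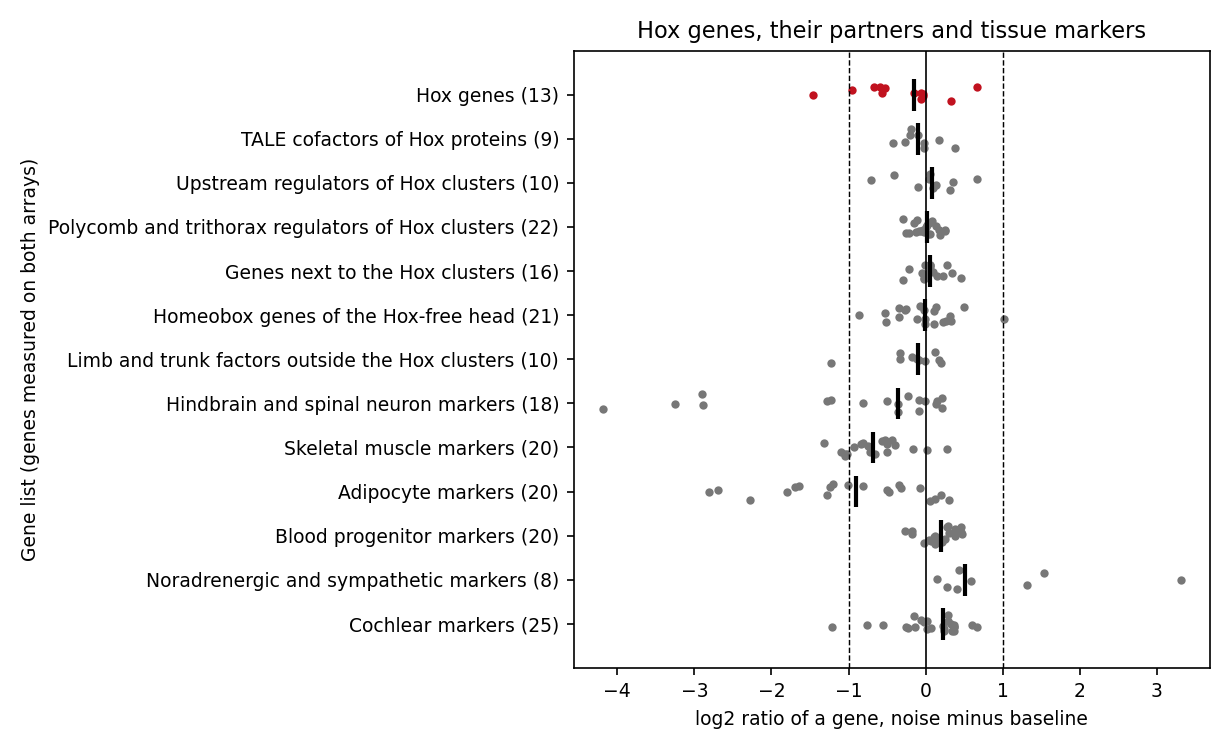
Log2 ratio, noise minus baseline (horizontal axis), of each gene measured on both arrays, by list, with the median as a black bar; dashed lines mark 2-fold and numbers in brackets are genes measured. Hox genes (red) spread from -1.46 to 0.66, while hindbrain and adipocyte markers reach further below 0.

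Promoters were available for 22 of the 39 genes, as 24 windows from 250 bases before to 50 after a transcript start (RefSeq, assembly GRCm38.p6). They were richer in CpG than most: the median ratio of observed to expected CpG was 0.626, against 0.384 over 32851 promoters, and the median GC content 57.7% against 52.7%. For the 10 windows of genes above background on an array the median CpG ratio was 0.497, and for the 14 windows of genes not well above background on either array 0.82. Motifs were searched on both strands. The retinoic acid receptor half-site AGGTCA was in 5 of the 10 windows of genes above background and in 2 of the other 14 windows, against 16.3% of all promoters. The Pbx and Hox site TGATNNAT was in 1 and 3 of them (8.85% of all promoters), TATAAA in 1 and 3 (13.6%) and the homeodomain core TAATTA in 0 and 2 (5.29%). A match of letters does not show that a factor binds there.

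Promoters of the genes at either end of the ratio range are printed with these motifs in capitals. The Hoxd4 window (chr2:74721728-74722027, plus strand, GC content 39.7%) held 1 AGGTCA half-site, read on the other strand, and 1 TATAAA, also on the other strand. The Hoxc4 window (chr15:103034145-103034444, plus strand, GC content 60.3%) held 1 AGGTCA half-site, again on the other strand.

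Hoxd4: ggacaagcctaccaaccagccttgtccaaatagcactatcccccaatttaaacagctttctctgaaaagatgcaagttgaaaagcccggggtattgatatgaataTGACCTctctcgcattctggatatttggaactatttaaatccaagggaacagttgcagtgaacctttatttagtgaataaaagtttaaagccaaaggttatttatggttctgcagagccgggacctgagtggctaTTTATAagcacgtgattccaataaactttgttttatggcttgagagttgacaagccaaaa

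Hoxc4: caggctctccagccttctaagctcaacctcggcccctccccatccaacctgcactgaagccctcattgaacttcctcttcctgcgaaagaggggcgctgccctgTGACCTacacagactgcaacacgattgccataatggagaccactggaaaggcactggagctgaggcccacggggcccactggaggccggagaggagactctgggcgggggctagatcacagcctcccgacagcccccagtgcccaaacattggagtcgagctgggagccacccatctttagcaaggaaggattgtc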

How the data were processed

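Intensity per spot was taken from the scanner files that the authors deposited. Per the file headers, Agilent Feature Extraction (version 11.5.1.1) had removed a background and a spatial trend, both arrays shared 1 slide and 1 scan, and probe positions are on mm9. A deposited table of log2 values equals log2 of the same signal (at least 1) minus 8.30 (noise) or 8.12 (baseline), with column medians of -2.81 and -2.79 and no centring per gene; it was an alternative.

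Here control spots and flagged spots (77 and 58 non-control spots) were left out, repeat spots were averaged on the log2 scale, each array's 75th percentile was subtracted, and a gene took the median of its probes well above background on both arrays. No spot was saturated. About 75% of probes were well above background on each array (75.3% and 75.2%). RefSeq accessions matched 46 of 52 Hox probes, all with the same symbol. Exon or untranslated positions on mm9 were not used here. Summed levels of the lists, and the share of 1 gene in a sum, combine signals of different probes. Differences in response between probes were not corrected for, and they limit any comparison of levels between probes. Python 3.11.15 and limma 3.58.1 were used, and the gene step was tested on simulated data. With 1 array per group no p-value was computed. The number of arrays limits the precision.

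Members and lists were chosen with earlier results of these data known. Hox genes above background are given with signals, except 1 that is not reported here by name and is kept in the counts; it is not drawn in plots that show single Hox genes. Other lists name members past 2-fold and up to 3 more by size, and further ones were picked after their values were seen; where a gene has several probes its signal is the median over them.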

Additional observations from a re-analysis of the deposited data

How the results depend on the processing

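With the normexp background 0 Hox genes were at least 2-fold lower, against 1, and the median was -0.16. With no filter on dim probes 38 Hox genes had a value and 4 were at least 2-fold lower, Hoxd4 with Hoxa5, Hoxb7 and Hoxc6, which were not well above background on both arrays. With the stricter filter 5 genes were measured and 0 were 2-fold lower, since dimmer probes were removed. The median was -0.45 with the brightest probe of each gene and with RefSeq symbols, which drop the second Hoxb3 probe. It was 0.03 with spike-in scaling. In the alternatives run here 0 Hox genes were 2-fold higher. Calling spots positive and significant gave 24 genes after noise and 25 at baseline, against 14 and 15. The share over all gene names was not computed for that call. Ignoring local-background flags and leaving out the opposite strand probe were chosen after the data were seen. The former restored Hoxa2, for 14 measured genes and a median of -0.34, and the latter left the median at -0.15. Low signal limits all of these ratios. No paired analysis was possible because only 1 array stood in either group, so no replicate could be left out.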
